A study of Homo sapiens with 5 samples.

Results

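The untreated HL60 genome was described from its own contact map. HL60 is an established human promyelocytic leukemia line. The map is the matrix of the cells that received neither of the study's differentiating agents, and it merges 2 of the 5 libraries of the series. The cells given all-trans retinoic acid (1 library) or the phorbol ester TPA (2 libraries) were not used. Of the 6203 bins of 500 kb, the 5773 on the 22 autosomes were taken. Of these, 5355 held at least 0.2 times the median number of contacts with other chromosomes and are called covered, and 418 did not. Positions are in Mb of the human build hg19. Because the 2 libraries were merged before deposit, the map is a single measurement. No replicate error or p-value can be given, and the 95% intervals below cover counting error only.

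Hi-C joins DNA ends that lie close together in the fixed nucleus and counts the joined pairs, so that each count is a contact between 2 places in the genome. Here the chromatin was crosslinked, cut with the restriction enzyme HindIII and ligated in solution. Contacts fall steeply with distance along a chromosome, and each chromosome occupies its own territory, so contacts within a chromosome normally far outnumber those with any other. In a leukemia genome the same counts also carry the karyotype: a segment present in more or fewer copies makes more or fewer contacts in all, and 2 segments fused by a translocation or deletion contact each other as neighbours do, although the reference places them far apart or on different chromosomes.

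The autosomes held 10247796 contacts, of which 4050876 joined bins of the same chromosome. The within-chromosome (cis) share was thus 39.5% (exact binomial interval 39.5% to 39.6%), and 60.5% of contacts joined different chromosomes (trans). Contacts inside a single bin made up 8.53% of the total. The median covered bin had 2224 trans contacts, a number with a counting SD of 2.12%. Neighbouring bins scattered more widely, with an SD from their differences of 0.190 on the log2 scale, against 0.0306 from counting alone. A single pair of bins on different chromosomes held only 0.457 contacts on average, so statements on chromosome pairs rest on sums. The centromere of each chromosome was taken as its longest run of bins below the coverage limit, which gave 39 arms: both arms of 17 chromosomes and the long arm alone of chromosomes 13, 14, 15, 21 and 22, whose short arms are not mapped.

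The arms differed in how many of their contacts stayed inside them. The within-arm share had a median of 20.97% over the 39 arms. It was lowest for 18p, at 14.1% (13.9% to 14.3%), then 9p at 14.9%, 20p at 15.4%, 21q at 16.1% and 12p at 16.7%. It was highest for 19p, at 25.8% (25.6% to 26.1%), then 19q at 25.3%, 1p at 25.2%, 22q at 24.1% and 10q at 23.9%. These extremes differed by far more than the counting error of either end. Longer arms tended to hold a larger share, with Pearson's r of 0.47 between the share and the log of mapped length (n = 39 arms of one map, a description with no test). The gene-rich short chromosomes 19 and 22 left that line furthest: 19p lay 7.31, 19q 6.17 and 22q 4.81 percentage points above the line. The arms furthest below it were 9p by -4.67, 20p by -3.32 and 18p by -3.28 points.

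The other contacts of an arm went to its partner arm or to other chromosomes. The trans share ran from 65.8% for 19p to 83.9% for 21q, with a median of 73.8%. A trans contact enters the totals of both arms it touches, and a contact within an arm enters only that arm's total. The arm shares therefore all lie above the 60.5% of the whole map, where each contact counts once. The long arms with no mapped partner arm have no second route within the chromosome. Of these, 21q, 14q (80.7%), 13q (77.9%) and 15q (77.9%) were among the high ones, while 22q (75.9%) was nearer the median. Some arms with a mapped partner lay above 13q and 15q, namely 18q (79.8%), 16q (78.5%) and 16p (78.3%). The part of a missing partner arm in the trans share was not tested. Of the 34 arms with a partner, 2p sent the most contacts to it, 11.5%, and 17q the fewest, 2.12%. Among contacts within an arm but between different bins, the share under 2 Mb apart followed arm length closely (r of -0.90, n = 39), from 31.7% on 4q to 66.5% on 19p. A short arm has few long distances to offer, so this order is in part set by length.

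**Figure D1:**
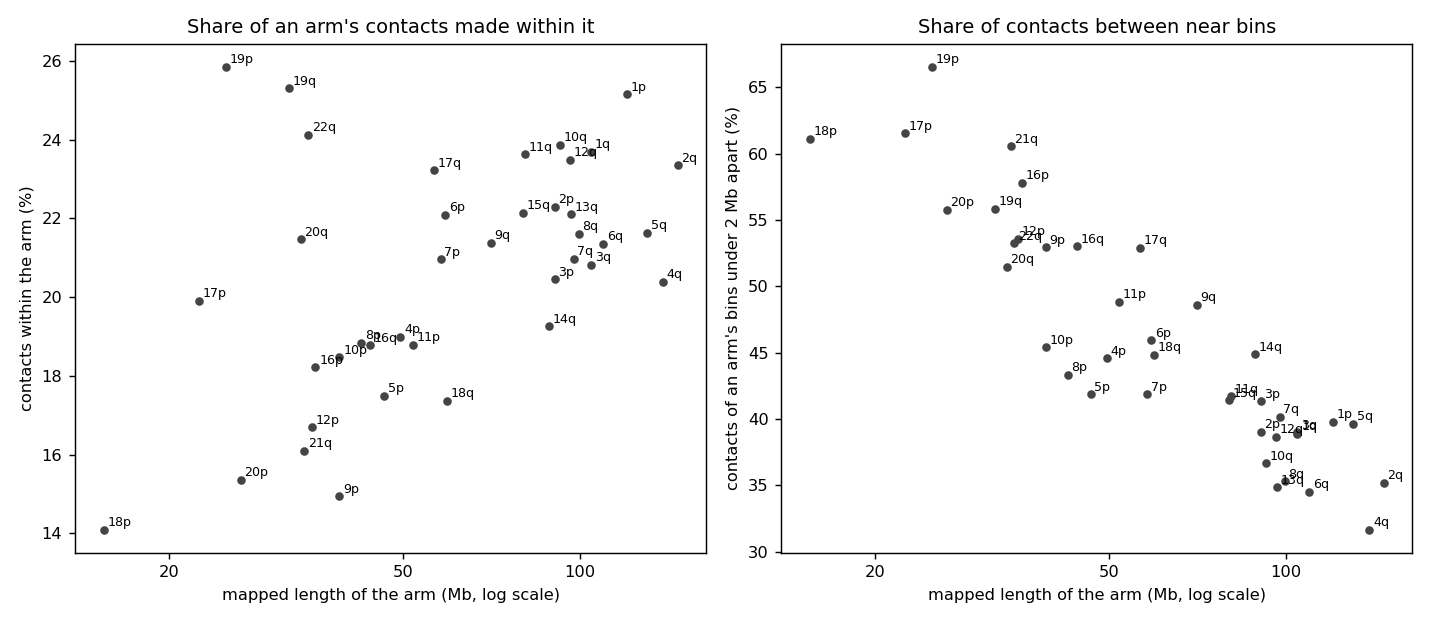
Each point is 1 of 39 chromosome arms of untreated HL60, against its mapped length in Mb on a log scale. The left panel gives the percentage of the arm's contacts made within it, with 19p, 19q and 22q standing high for their length and 9p low; the right panel gives the percentage of contacts between different bins of the arm that lie under 2 Mb apart, which falls from 66.5% on 19p to 31.7% on 4q.

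Coverage, the trans contacts of a bin relative to the median covered bin on the log2 scale, was used as a guide to the number of copies. On a diploid base a single copy would read about -1 and 3 copies about 0.58. Coverage also moves with restriction sites, base composition and the place of a region in the nucleus, and no genome of the files' build was at hand to correct for the first and second; their part was not tested. As a guide to position in the nucleus, an index of contact with the gene-rich chromosomes 17, 19, 20 and 22 was used. Coverage correlated with it at r of 0.42 over the 39 arms and 0.23 over the 5355 bins. The index counts all contacts with those chromosomes, including those of segments joined to them. On 16p, 4 joined clusters with 17q (described further on) enter it. Their part in the corrected value of 16p was not tested. By arm median the lowest were 5q at -0.85, 9p at -0.75, 3p at -0.63, 11p at -0.56 and 2q at -0.27. The highest were 22q at 0.53, 20q at 0.51, 16q at 0.45, 16p at 0.43 and 17q at 0.36. All but 16q of the high arms also had an index above 0.4, and with coverage corrected for the index 22q read 0.24, 20q 0.27, 16p 0.14 and 17q 0.22, while 16q stayed at 0.43. None of the low arms rose above -0.2 on that correction.

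Segments of even coverage were called low at -0.5 or below and high at 0.4 or above. There were 16 low regions with 578 bins, 10.8% of all covered bins, and 14 high ones with 619 bins, 11.6%. The longest low region took up most of 5q, from 54.5 to 139.5 Mb, with a median coverage of -1.12 over 167 bins, or 0.460 times the median bin. The rest of 5q read 0.24. On 3p the interval from 22 to 75.5 Mb read -0.88, and on 11p the outer interval from 0 to 28 Mb read -0.87. On 9p the bins from 11.5 to 32.5 Mb read -1.14, against 0.19 for the rest of that arm. The bins of 2q from 118.5 to 139.5 Mb read -1.07. The 5q, 9p and 2q intervals lay near the level of a single copy on a diploid base, and the 3p and 11p intervals between that and the median.

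Shorter or shallower low regions were found on 14q from 65 to 88 Mb (-0.50), 13q from 19 to 37 Mb (-0.66), 18q from 46.5 to 58.5 Mb (-0.70), 9q from 104.5 to 107.5 Mb (-1.25) and at the end of 16q from 87 to 90.5 Mb (-0.52). The 14q region lies at the limit, and on correction for the gene-rich index its bins read -0.40, short of it. Of the 16 low regions, 7 border a centromere: that of 13q and 6 short ones on 1q, 2p, 7q, 11p, 15q and 16p, between -0.56 and -1.07. Repeats are common beside centromeres and their mapping was not tested.

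The high regions were of different kinds. The most extreme was on 8q from 126 to 131 Mb, with a median of 3.20, or 9.16 times the median bin. Within it the level was not even. The bins starting at 126, 126.5 and 127 Mb held 11.03, 12.0 and 11.2 times the median, the next held 0.906 times, and those at 128 and 128.5 Mb held 10.7 and 5.31 times. The bins at 129 and 129.5 Mb were at 1.16 and 0.971 times, and those at 130 and 130.5 Mb reached 17.8 and 7.83 times. The raised bins therefore formed separate blocks with bins near the median between them. The 3 Mb on either side read 0.26 and 0.17.

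The other high regions were between 0.44 and 0.66. On 6q the last 53 Mb, from 118 to 171 Mb, read 0.59 with a highest bin of 2.51 times the median at 168.5 Mb, while the rest of 6q read -0.29. On chromosome 16 almost the whole of both arms was high, at 0.46 from 0 to 32 Mb and 0.46 from 46.5 to 87 Mb. The whole of 22q (0.53) and of 20q (0.51) was high. High ends were found on 21q from 30 Mb (0.66), 12p to 6.5 Mb (0.62), 4p to 9 Mb (0.58), 10q from 120 Mb (0.57), 14q from 88 Mb (0.56), 18q from 71.5 Mb (0.56), 2q from 231.5 Mb (0.47) and 11q from 111 Mb (0.44). With coverage corrected for the gene-rich index 8 high regions were left, holding 56.9% of the bins called high without it. The regions of 6q and 16q rose on that correction, to 0.71 and 0.51, while the 16p, 20q and 22q regions fell below the limit.

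**Figure D2:**
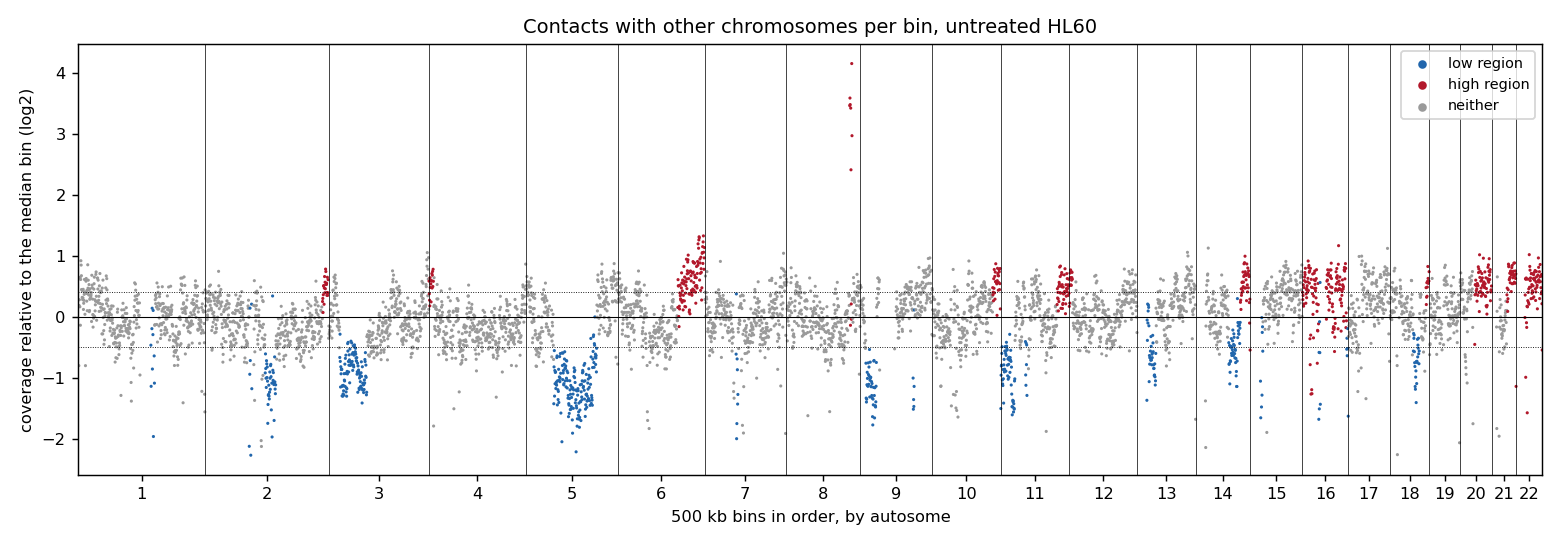
Each point is a covered 500 kb bin, in order along the 22 autosomes; the vertical axis is its number of contacts with other chromosomes relative to the median bin, on the log2 scale. Blue marks the 16 low and red the 14 high regions, and the dotted lines are the limits of 0.4 and -0.5; the blocks of chromosomes 2, 3, 5, 9 and 11 lie low, the end of 6q climbs, and a few bins of 8q stand at up to 17.8 times the median.

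The label was checked against karyotype features for which HL60 is known. The gain at 8q24 was seen, as the 8q region above lies in that band. The low region of 9p, at 0.453 times the median, spans most of the band 9p21, where a loss is known. For the loss at 17p13 no low region was called: 17p read -0.15 as a whole, and -0.50 on correction for the gene-rich index. A segment under 6 bins could not be called, so a short loss would not show. A gain of the whole of chromosome 18 was not seen. Its short arm read 0.30, below the limit, its long arm -0.04, and 18q held a low region as well as a high end. The data thus show the 8q24 and 9p21 features and do not show the gain of chromosome 18 at this resolution. The loss at 17p13 was not called from uncorrected coverage, while the corrected value of 17p lies about at the limit.

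The borders of the low regions often coincided with places joined to distant segments, as called further on. A joined place here is the peak bin of a cluster of 3 or more bin pairs, of which there were 109 clusters. Of the 23 borders of low regions that were not the end of an arm, 17 (73.9%) lay within 1.5 Mb of such a peak, against 16.1% of all covered bins and 11.2% of the bins inside low regions. For high regions it was 6 of 13 borders (46.2%). With clusters of 5 or more pairs alone, 11 of the 23 low borders had one (47.8%), against 9.37% of bins. The method's penalty on extra segments was chosen after its calls under 3 settings were seen, partly because of how borders met joined places, so the count is not independent of that choice. Under penalties 2 and 4 times as strong, 13 of 17 borders (76.5%) and 5 of 8 (62.5%) had a peak. Some peaks serve 2 borders.

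In 2 of the 7 low regions with both borders inside an arm, the borders were joined to each other. On 3p the bins at 22.5 and 75.5 Mb made 39 contacts, in a cluster of 3 pairs. Those 39 contacts were 36.7 times the number expected from coverage and the genome-wide mean at that distance. On 2q the bins at 118 and 139.5 Mb made 28 contacts, 16.0 times expected. The 18q region had a near case, with 33 contacts between 44 and 58 Mb (11.2 times), although the first lies outside the 1.5 Mb limit. The borders of other regions were joined elsewhere. Those of 5q met 17p at 21 Mb (35 contacts, 40.8 times) and 7q at 130.5 Mb (33 contacts, 68.8 times). Both borders of the 9q region met 14q, at 64 Mb (36 contacts, 68.7 times) and 61.5 Mb (43 contacts, 69.9 times), and the border of the 9p region at 32.5 Mb met 14q at 82 Mb (32 contacts, 55.5 times). The 6 low borders with no peak near them were 28 and 48.5 Mb on 11p, 11.5 Mb on 9p, 88 Mb on 14q, 46.5 Mb on 18q and 150 Mb on 1q.

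Within arms, contacts fell with distance at a median slope of -1.13 between 1 and 10 Mb (log10 contacts per bin pair on log10 distance; 39 arms). The steepest were 8q at -1.30, 21q at -1.25, 9p at -1.24, 14q at -1.23 and 16q at -1.22. The shallowest were 8p at -0.905, 18p at -0.987, 10p at -0.993, 22q at -1.02 and 6q at -1.02. The slope hardly followed arm length (r of -0.21). The few bins of very high coverage on 8q enter its slope, and their part in it was not tested.

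Between 10 and 50 Mb, where 24 arms were long enough, the median slope was -0.48 and the arms spread widely. The steepest were 12q at -0.84 and 1p at -0.79, followed by 11p at -0.66, 14q at -0.65 and 5q at -0.63. The curve was almost flat for 6p at -0.0090 and 17q at -0.022, followed by 11q at -0.21, 8q at -0.34 and 1q at -0.35. The 6p and 17q arms each hold a joined cluster between blocks 36.5 Mb apart. Counting clusters of 5 or more bin pairs inside the arm, 6p held 2 and 17q held 1. With all of these and 5 Mb around them left out, 17q read -0.17 and 6p 0.0064, so the flat curve of 6p was as flat without them. Among the 8 arms with any cluster of that size inside them the median was -0.43, and among the 16 without one -0.50, and the 2 sets overlapped.

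**Figure D3:**
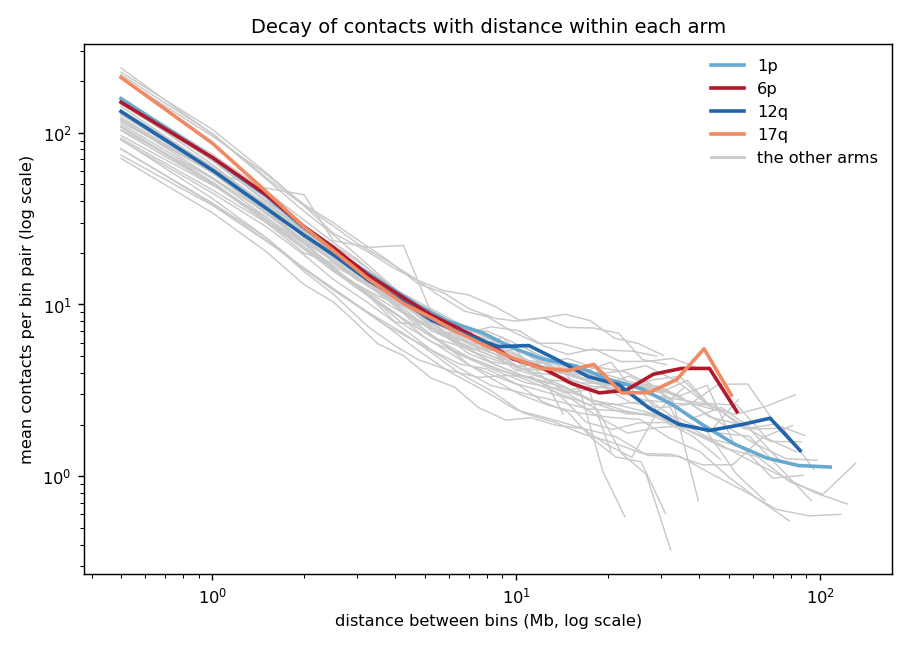
Mean contacts per pair of 500 kb bins against the distance between them, both on log scales, 1 line for each arm. Most lines run nearly parallel at short distances. The line of 8q leaves them, with 43.6 contacts per pair at 2 Mb, 22.1 at 4.25 Mb and 7.32 at 5.5 Mb. Beyond 10 Mb the lines spread. There 6p rises from 3.06 contacts per pair at 18.75 Mb to 4.24 at 35 Mb and 17q from 3.05 at 22.25 Mb to 5.52 at 41.5 Mb. In contrast, 1p falls throughout, and 12q falls to 1.85 at 43.25 Mb and rises to 2.18 at 68.5 Mb.

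The short and long arm of a chromosome contacted each other more than other chromosomes in all 17 cases, by 2.08 (chromosomes 5 and 16) to 9.37 times (chromosome 19) the level between chromosomes. Set against coverage and the genome-wide mean at the same distance, which itself includes such pairs, the ratio had a median of 1.01. Chromosome 16 was lowest at 0.483 (0.473 to 0.493), although its centromere leaves a gap of unmapped bins from 35.5 to 46.5 Mb; pairs within its arms were also low, at 0.671. Chromosomes 17 (0.709), 5 (0.723), 4 (0.845) and 6 (0.90) followed. Chromosomes 18 (0.956), 8 (0.977), 3 (0.983), 11 (1.01), 1 (1.03), 7 (1.05), 12 (1.06) and 9 (1.06) were close to 1. Pairs within the arms of chromosome 9 were low, at 0.667, as on chromosome 16. Chromosomes 20 (1.12), 10 (1.13), 2 (1.41) and 19 (1.52, interval 1.49 to 1.54) were high.

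The order depends on how coverage enters. With distance alone as the expectation, chromosome 5 fell to 0.499, 3 to 0.679 and 16 read 0.780, while 20 rose to 1.88 and 19 to 1.65. Chromosomes 6, 7, 8, 11 and 18 then crossed 1, at 1.04, 0.985, 1.27, 0.896 and 1.11. Chromosomes 3, 4, 5, 16 and 17 stayed below 1, and 1, 2, 9, 10, 12, 19 and 20 above it, under each expectation tried. Leaving out joined clusters brought chromosome 19 to 1.47 and 2 to 1.40.

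Joined segments between chromosomes were sought as bin pairs with at least 10 contacts and at least 10 times the number expected from coverage. Of all pairs between covered bins 782 passed, 0.00578%. Neighbouring pairs merged into 300 clusters, of which 222 were a single pair and 27 held 5 or more pairs. The 27 are described here. They held 7472 contacts, 0.121% of those between chromosomes, and linked 14 chromosomes in 13 pairs. Chromosome 16 took part in 12 of them with 5 partners, chromosome 14 in 8 and chromosome 5 in 7. None lay on chromosomes 2, 10, 11, 12, 13, 15, 19 or 22. A peak bin pair of these clusters had between 4.07% and 42.4% of the contacts of adjacent bins at the same coverage, with a median of 9.36%.

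The cluster with the most contacts joined 1p (1.5 to 8.5 Mb) to 3q (185.5 to 195 Mb), with 1207 contacts in 62 bin pairs, 23.5 times expected (22.2 to 24.8). The end of 4q from 184.5 Mb met 18q at 43.5 to 47.5 Mb with 751 contacts, 36.8 times expected. On 5q the bins from 152.5 to 159.5 Mb met 16q at 79 to 85.5 Mb with 676 contacts, 20.6 times. The densest peak joined 16p at 28 Mb to 21q at 33.5 Mb: 100 contacts in 1 bin pair, 116 times expected and 42.4% of the level of adjacent bins, in a cluster of 590 contacts.

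Further clusters linked 7q (131 to 135.5 Mb) to 16q (81.5 to 85.5 Mb) with 387 contacts, 14q (22.5 to 28 Mb) to 21q (37.5 to 41.5 Mb) with 383, and 5q (139.5 to 143 Mb) to 7q (127 to 131 Mb) with 360. The clusters among 5q, 7q and 16q thus overlap on 16q and adjoin on 7q. On 16p the bins from 11 to 15 Mb met 17q at 25 to 28.5 Mb with 321 contacts and those from 15 to 16.5 Mb met 17q at 74 to 76.5 Mb with 217, so that neighbouring bins of 16p met distant parts of 17q. The raised bins of 8q met 6q at 118.5 Mb, at the border where the high region of 6q begins, with 317 contacts (10.9 times). That ratio is already relative to the high coverage of 8q.

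Among the clusters with fewer contacts, 9q met 14q at 2 places with 301 contacts (30.7 times) and 156 contacts (30.7 times), flanking the low region of 9q. The end of 3q met 14q with 246 contacts (29.2 times) and 199 contacts (13.7 times), and 1p met 3q again with 167. The cluster between 5q at 51.5 to 54 Mb and 17p at 20.5 to 22 Mb, with 223 contacts, had the highest ratio of the 27, 39.0 (34.0 to 44.4). The other clusters within the 20 with the most contacts were 5q with 7q (149 contacts), 14q with 21q (100), 16p with 17q (100) and 9p with 14q (96).

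The links fell into 3 separate groups. The first tied 10 chromosomes, 1, 3, 5, 7, 9, 14, 16, 17, 20 and 21, by 25 clusters in 11 chromosome pairs. The second held chromosomes 4 and 18 with 1 cluster, and the third held 6 and 8 with 1. Membership says only that each chromosome shares a cluster with another of its group, not that one derivative chromosome holds them. Whether all the joins occur in the same cells cannot be told from a map summed over cells.

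By the median, contacts faded away from the peaks. Over the 20 clusters with the most contacts, the median was 37.9 times expected at the peak bin pair, 17.2 times at a summed distance of 1 Mb on the side with most contacts, 6.90 times at 5 Mb and 3.98 times at 10 Mb. The cluster of 9q at 104 Mb with 14q at 64 Mb fell to 0 at 2.5 Mb and read 13.3 times at 5.5 Mb. Its window there reaches the other cluster of 9q with 14q. The windows of the 2 clusters of 3q with 14q overlap as well. The part of neighbouring clusters in the medians was not tested. The peak chose itself as the highest pair, so the first step is partly a product of that choice. At the peaks, coverage was higher on the side that held more contacts at 35 of the 48 ends with both sides measured. That count rests on raw contacts, which grow with coverage. With the side taken by the ratio to expected, it was 25 of 48, and of the 18 ends with a step of at least 0.5 the count went from 16 to 10. No relation between the joined side and coverage is therefore drawn.

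**Figure D4:**
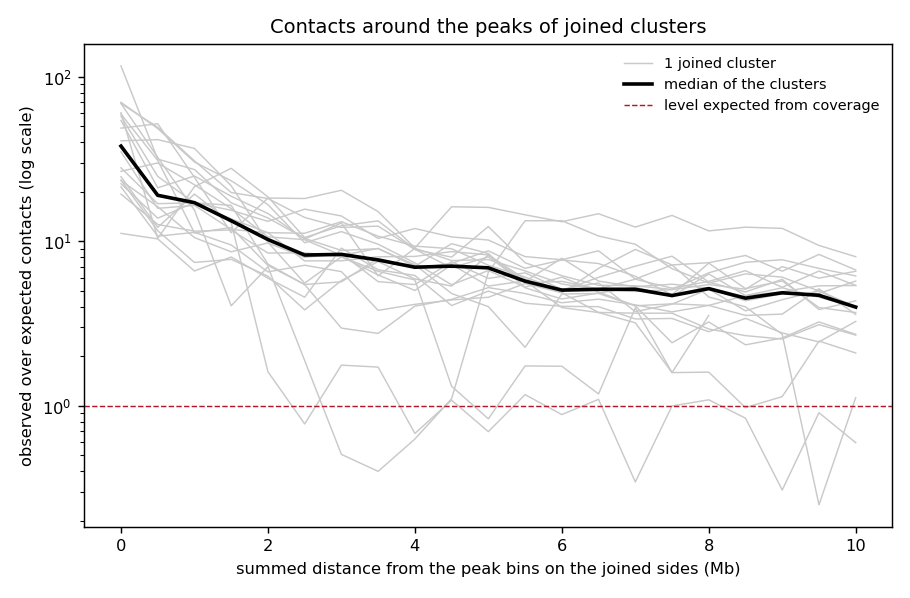
Observed over expected contacts (log scale) against the summed distance in Mb of both bins from the peak of a joined cluster, on the side with most contacts; grey lines are the 20 clusters with the most contacts and the black line their median. The median falls from 37.9 at the peak to 3.98 at 10 Mb and stays above the dashed line at 1, while a few clusters drop to that line within 3 Mb. That of 9q at 104 Mb with 14q at 64 Mb rises again, to 13.3 at 5.5 Mb.

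Joined segments within chromosomes were bin pairs at least 10 Mb apart with at least 10 contacts. They also held at least 5 times the number expected from coverage and the genome-wide mean at that distance. Of 699807 pairs, 830 passed (0.119%), in 467 clusters, 27 of them with 5 or more pairs. Of the 27, 18 lay in 1 arm and 9 crossed the centromere. Chromosome 2 held 11, although it had no cluster with another chromosome, and chromosome 19 held 5.

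The cluster with the most contacts joined 2p at 15 to 21 Mb to 2p at 73 to 76 Mb, with 606 contacts (12.2 times expected). The next joined 17q at 39.5 to 42.5 Mb to its end at 79 to 81.5 Mb with 533 contacts (12.3 times), and its peak of 103 contacts was 63.1% of the level of adjacent bins. Across the centromere, 2p at 38.5 to 43.5 Mb met 2q at 175.5 to 180 Mb with 516 contacts, and at 17.4 times (15.9 to 18.97) it had the highest ratio of the 27. On 2p again, the bins from 60.5 to 63 Mb met those from 72.5 to 75 Mb with 385 contacts (9.89 times). Bins near 74 Mb on 2p thus recur as a partner. The next were 6p at 15.5 to 18.5 Mb with 55 to 57 Mb (324 contacts, 9.82 times), 2q at 147 to 150.5 Mb with 162.5 to 165.5 Mb (291), 20p with 20q (275, 6.98 times), 4p at 17 to 19 Mb with 31 to 34.5 Mb (266), 2q at 219 Mb with 232 Mb at the peak (191) and 19p with 19q (184, 5.97 times). With the mean of the same chromosome as the expectation 19 clusters were left. A fold above the mean at a distance does not by itself tell a rearrangement from a folding contact.

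Between arms of different chromosomes, the contacts of each pair were set against a number fitted from the totals of all arms. Of 724 arm pairs, 25 (3.45%) reached 1.5 times expected, with quartiles of 0.921 and 1.03 over all pairs. The highest was 16p with 17q at 2.48 (2.43 to 2.52), followed by 17p with 19p (2.28), 17p with 22q (2.14), 19p with 22q (2.10), 16p with 21q (2.06), 7q with 16q (2.04), 20q with 22q (1.95), 4q with 18q (1.94), 19q with 22q (1.94) and 5p with 17q (1.92). The lowest were 6q with 19p (0.676), 22q (0.692), 17p (0.713) and 16p (0.723), and 4q with 19p (0.736). The pair 6q and 22q read 1.04 when arms were weighted by mapped bins instead, an expectation that leaves coverage out.

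Apart from 5p with 17q and 15q with 16q, the pairs above 1.5 were of 2 kinds. In the first, 8 pairs held a joined cluster. With those clusters and 5 Mb around them left out, 7 of the 8 stayed above 1.5: 16p with 17q came to 1.95, 16p with 21q to 1.83, 7q with 16q to 1.95, 4q with 18q to 1.84, 3q with 14q to 1.81, 9q with 14q to 1.64 and 6q with 8q to 1.54. The exception was 5q with 16q, which went from 1.90 to 1.37. In those 7 pairs the bins outside the segments left out were thus raised as well. Contacts around joined peaks still had a median of 3.98 times expected at a summed distance of 10 Mb, in windows that can take in a neighbouring cluster. The part of such tails in the remaining ratios was not tested. In the second kind, small gene-rich arms met each other without a joined cluster. Of the 19 pairs among 16p, 17p, 17q, 19p, 19q, 20q and 22q, a set named after the values were seen, 16 reached 1.5, of which 15 held no cluster, and the lowest was 1.37. The set leaves out 20p, whose highest ratio with any arm was 1.47, with 22q. The share of high pairs therefore depends on that choice of arms. Contact among small gene-rich chromosomes in the nuclear interior is a known feature of human nuclei.

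The nearest arm on another chromosome was different for the 2 arms of 12 chromosomes and the same for both arms of 5, namely 3, 4, 6, 9 and 20. On chromosome 16 the short arm was nearest to 17q (2.48) and 21q (2.06), and the long arm to 7q (2.04) and 5q (1.90). On chromosome 5 the short arm was nearest to 17q (1.92), with no joined cluster of 5 or more pairs, and the long arm to 16q. The other arms of these chromosomes were joined, with a peak between 5q at 53 Mb and 17p at 21 Mb. Those places lie near the centromere gaps of chromosomes 5 (46.5 to 49.5 Mb) and 17 (22.5 to 25 Mb). The part of that join in the contact of 5p with 17q was not tested. Among the chromosomes that shared one, both arms of chromosome 3 were nearest to 14q, at 1.479 for the short and 1.84 for the long arm, as both arms of chromosome 9 were, at 1.47 and 1.68. With the joined clusters and 5 Mb around them left out, 9p with 14q came to 1.23 and 9q with 14q to 1.64. Both arms of chromosome 4 were nearest to 18q, but at 1.07 for the short and 1.94 for the long arm. Both arms of chromosome 6 were nearest to 8q, at 1.20 and 1.66, and both arms of chromosome 20 to 22q, at 1.47 and 1.95. The arms 6q, 8q and 11p were raised with each other at 1.66 (6q and 8q), 1.43 (8q and 11p) and 1.42 (6q and 11p), and neither pair with 11p held a joined cluster of 5 or more pairs. Likewise 15q met 16q at 1.62 with no such cluster.

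**Figure D5:**
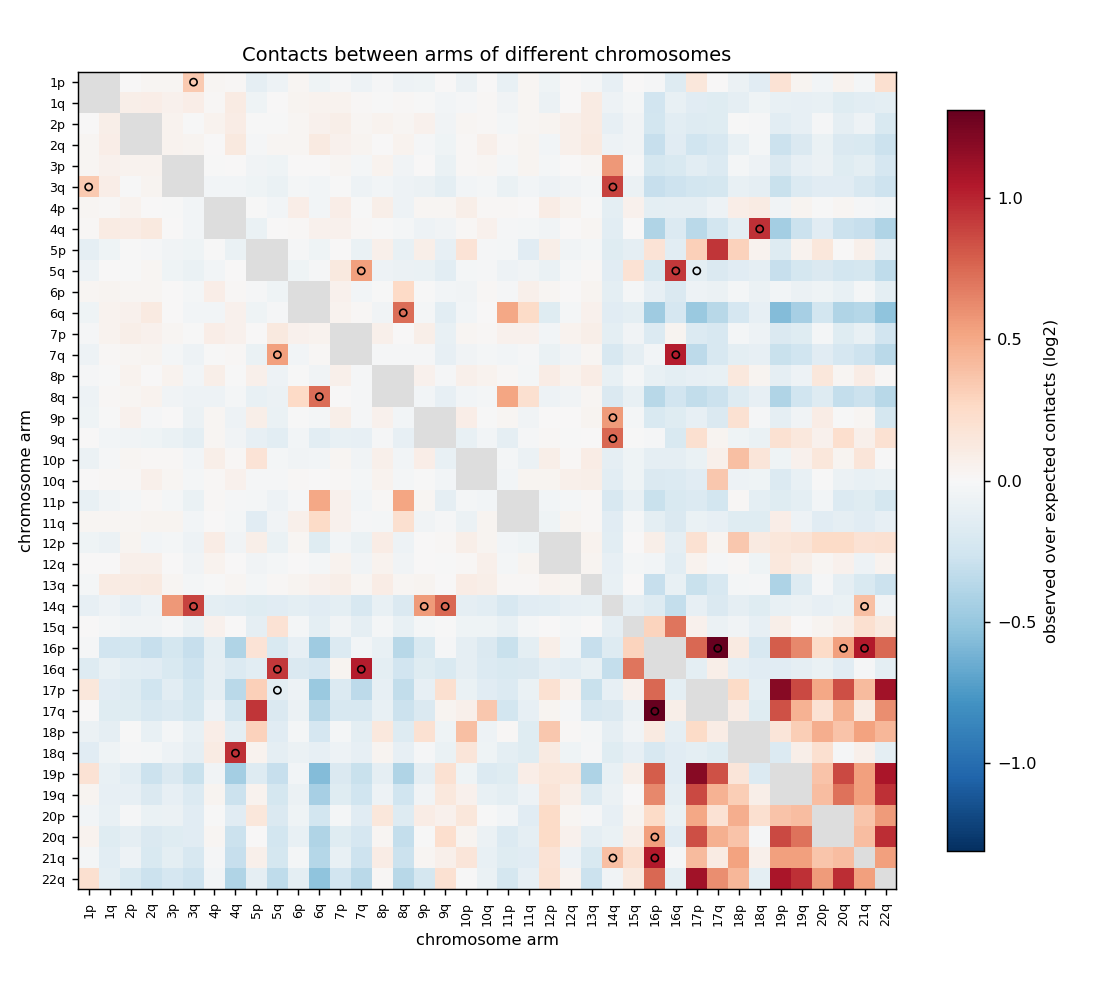
Observed over expected contacts (log2 colour scale) between all arms of different chromosomes, with the arms in order on both axes, grey for pairs on the same chromosome and open circles for pairs with a joined cluster of 5 or more bin pairs. The block of small arms at the lower right is red mostly without circles, while 4q with 18q and 5q and 7q with 16q stand out singly with one.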

How the data were processed

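The design text names Bowtie for alignment, HiCUP for filtering and HOMER for the matrices. The version HOMER 4.7 and build hg19 come from the submitters' processing notes, with filter settings not given in the sources used here. What the authors deposited are raw contact counts between 500 kb bins without normalization, per the file headers and values, with the 2 untreated libraries merged. Diagonal counts were divided by 2, and the upper triangle was used (1 cell differed from its mirror). The other matrices and the 430 bins off the autosomes were left out.

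Analysis used Python 3.11.15, numpy 2.4.6, scipy 1.17.1, pandas 2.3.3 and matplotlib 3.10.9. Intervals are exact binomial or Poisson at 95% and cover counting error only; read pairs may not be independent. Coverage was segmented per arm by optimal partitioning (at least 6 bins, penalty factor 10). Expected contacts between chromosomes came from coverage products, and arm pair expectations from iterative proportional fitting.

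The members and lists were chosen with earlier results of these data known. The penalty factor was chosen after the calls under factors 10, 20 and 40 were seen. The 1.5 Mb border distance, the 3-pair minimum, the 3 Mb flanks, the 5 Mb windows, the 0.5 step and the set of small arms were likewise set with the data in view. Named items were the 5 highest and lowest arms, up to 20 coverage regions by length (the rest given more briefly), all chromosomes for arm contact, 10 highest and 5 lowest arm pairs, and the 20 between and 10 within clusters with most contacts; any other item was chosen after its values were seen. A planned gene list was not placed, since no annotation of the build was used.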

Additional observations from a re-analysis of the deposited data

Results flagged for a closer look

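Chromosome X lies outside the autosomes described above and still carried signal. Its 310 bins held 290827 contacts with autosomes, far above the 3 contacts that a count of 0 allows. Its 282 covered bins had a median coverage of -1.18 on the log2 scale, or 0.441 times the median autosomal bin, with quartiles of -1.39 and -1.01. X was taken whole because the centromere rule put its longest low run near an end of the chromosome.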

How the results depend on the processing

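No paired analysis was possible because the 2 untreated libraries were merged into 1 matrix before deposit, and for the same reason no run without 1 of the libraries was made. The planned correction for GC and HindIII sites was not run, as no genome of the build was used. Alternatives with the penalty factor, the square root of coverage and the border rule were chosen after seeing the data.

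The cis share was 44.3% with the diagonal as deposited, 33.9% with it left out and 39.0% with X included. Low regions numbered 10 with limits of 0.5 and -0.7, 9 with a 12-bin minimum and 6 with penalty factor 40. High regions numbered 8 on correction for the gene-rich index, 25 with limits of 0.3 and -0.4 and 7 with penalty factor 40; with penalty factor 20 there were 12 low and 11 high. The 1 to 10 Mb slope was -1.08 after division by coverage and -1.05 from 2 Mb. Arm pairs at 1.5 times or more numbered 56 when expected from mapped bins. Clusters between chromosomes numbered 12 at 20 times expected and 7 at 20 contacts. Clusters within chromosomes numbered 112 at 3 times, 5 at 10 times and 9 at 20 contacts, so these counts reflect the threshold. Low borders beside a joined peak were 47.8% with clusters of 5 or more pairs, 52.2% within 1 Mb, 82.6% within 3 Mb and 75.0% without regions at centromeres.

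Contact between arms crossed 1 with distance only for chromosomes 6 (1.04), 7 (0.985), 8 (1.27), 11 (0.896) and 18 (1.11), and with the square root of coverage for 8 (1.15), 11 (0.945) and 18 (1.01). The pair 6q and 22q read 1.04 by mapped bins. Of values for single arms, regions, pairs and clusters, 286 moved by more than counting error, 144 did not and 9 crossed over; the causes were not tested. Depth limits single bin pairs far from the diagonal.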

Other observations

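Some joined bin pairs fell outside the clusters described and were picked out after their values were seen. The bins of 1q at 146.5 to 147.5 Mb and 16q at 70.5 to 71.5 Mb made 134 contacts in 4 pairs, 41.5 times expected, higher than any cluster of 5 or more pairs. Bins of 1p at 119.5 to 120.5 Mb and 1q at 144.5 to 145.5 Mb, on either side of the centromere, made 116 contacts in 3 pairs, 13.6 times expected. A single pair between 6q at 118.5 Mb and the bin of 8q with the highest coverage, at 130 Mb, held 160 contacts, 14.01 times expected. Mapping of duplicated sequence at these places was not tested.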
